A study of Rattus norvegicus and Mus musculus with 12 samples.

Results

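The TNF ligand and receptor superfamily was followed in RNA-seq data of articular chondrocytes, the cells that make and maintain the cartilage of joints. Its members were taken by gene symbol, as every symbol made of Tnfsf or Tnfrsf and a number, together with Tnf, Lta, Ltb, Ltbr, Cd40, Fas, Fasl, Eda2r, Edar and Ngfr. This rule found 33 of 19687 genes in the rat table and 42 of 28603 genes in the mouse table. All 33 rat symbols were also in the mouse table. The other 9 symbols, Tnf, Tnfsf11, Tnfsf14, Tnfsf13os, Tnfrsf10b, Tnfrsf14, Tnfrsf22, Tnfrsf23 and Fasl, were analysed in mouse alone, and no rat value is given under these symbols. The Fas ligand gene is listed in rat as Faslg, outside the rule, and is given with the other observations. Tnfsf13os meets the rule by its name but is annotated as an antisense gene.

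All groups were chondrocytes at passage 1, taken from newborn rats of the SD (Sprague–Dawley) stock or from newborn C57BL/6 mice. The RM and MM groups (rat and mouse model) were treated for 24 h with the inflammatory cytokine IL-1β at 20 ng/ml, and the RC and MC groups (rat and mouse control) were not. Each group had 3 libraries. The methods call the samples independent. The sources do not say which animals a sample came from or whether cells of several animals were pooled, so P values measure the spread between these samples. The strain given with the mouse libraries changes from C57BL/6 to C57BL/9 between libraries of the same group, whereas the methods name C57BL/6 for all. Libraries held 20169272 to 25903459 counted reads in rat and 16841580 to 20048322 in mouse.

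Ligands of the superfamily are mostly trimers held in the membrane, from which some are released by proteases. Their receptors bind them through cysteine-rich repeats. Receptors with a death domain inside the cell can recruit adaptors that lead to caspase activation, whereas most of the others bind TRAF proteins and signal to NF-κB. Decoy receptors bind a ligand without passing the signal on. In the skeleton the best known set is RANKL (Tnfsf11), which drives osteoclast formation, its receptor RANK (Tnfrsf11a) and the soluble decoy osteoprotegerin (Tnfrsf11b). In joint tissue the family is best known for TNF itself, which induces matrix-degrading enzymes in chondrocytes through its receptors Tnfrsf1a and Tnfrsf1b.

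The promoters of 4 rat members are printed as examples. Tnfrsf9, Tnfsf15 and Tnfrsf1b met the criteria for differentially expressed genes (DEGs) with upregulated expression in both species. Tnfsf18 changed in opposite directions but did not meet these criteria in mouse. Edar met them in opposite directions, and its promoter is not printed. Each sequence holds the 250 bases before the start of the gene in RefSeq on GRCr8, 5′ to 3′ along the gene's strand. The regions are chr5:166664244-166664493 (plus strand) for Tnfrsf9, chr5:82171659-82171908 (minus strand) for Tnfsf15, chr5:162387412-162387661 (minus strand) for Tnfrsf1b and chr13:76366603-76366852 (plus strand) for Tnfsf18. Capitals mark a match to the AP-1 motif TGANTCA, searched on both strands.
Tnfrsf9: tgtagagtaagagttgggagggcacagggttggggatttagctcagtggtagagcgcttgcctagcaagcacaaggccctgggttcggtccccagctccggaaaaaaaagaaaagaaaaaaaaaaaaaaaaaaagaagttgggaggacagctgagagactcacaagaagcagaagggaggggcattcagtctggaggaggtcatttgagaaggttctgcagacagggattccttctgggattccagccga
Tnfsf15: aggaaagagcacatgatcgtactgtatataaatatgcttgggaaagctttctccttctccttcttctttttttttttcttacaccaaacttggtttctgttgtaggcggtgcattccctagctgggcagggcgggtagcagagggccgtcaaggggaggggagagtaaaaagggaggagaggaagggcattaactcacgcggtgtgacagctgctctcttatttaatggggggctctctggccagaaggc
Tnfrsf1b: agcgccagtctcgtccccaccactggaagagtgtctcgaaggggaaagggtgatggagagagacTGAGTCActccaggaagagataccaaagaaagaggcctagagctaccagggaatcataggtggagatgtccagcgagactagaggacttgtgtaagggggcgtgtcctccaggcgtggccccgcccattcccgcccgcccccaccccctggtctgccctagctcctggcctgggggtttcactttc
Tnfsf18: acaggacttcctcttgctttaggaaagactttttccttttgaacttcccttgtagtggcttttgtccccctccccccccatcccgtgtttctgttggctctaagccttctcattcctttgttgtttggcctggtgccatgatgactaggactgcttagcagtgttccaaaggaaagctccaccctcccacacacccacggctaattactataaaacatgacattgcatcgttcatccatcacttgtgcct

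Of the 33 rat members, 25 had a promoter in the RefSeq table, 1 each. The AP-1 motif was found in the promoters of 3 of these 25, Fas, Tnfrsf1b and Tnfrsf8, and in 6.34% of all 33469 promoters. In Tnfrsf1b the match TGAGTCA began 186 bases before the gene's start. The NF-κB consensus was found in Lta, Ltb and Tnfrsf8, again 3 of 25, and in 3.54% of all promoters. None of the 4 printed promoters held it, which says only that these letters are not in this window. Of the genes with a match to either motif, Fas and Tnfrsf1b passed the filter on low counts in rat.

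Levels are given in FPKM, that is fragments per kilobase of gene, scaled to the reads counted in the library, so that genes can be compared within a species. A gene was taken as expressed when its mean was at least 1 FPKM in a group. In rat 15 of 33 members were expressed, 12 in RC and 15 in RM. In mouse 22 of 42 were expressed, 18 in MC and 18 in MM. Over all genes the share was 59.4% in rat and 43.2% in mouse. The 13 members expressed in both species were joined by 2 in rat alone, Tnfsf13 and Tnfsf18, and by 9 counted in mouse alone. Among these 9, Tnfsf11, Tnfrsf10b, Tnfrsf14, Tnfrsf22 and Tnfrsf23 had no rat value, so their expression in rat is not known. Edar, Ngfr, Tnfrsf18 and Tnfrsf25 were below the threshold in rat. Edar averaged 0.899 FPKM in RM and Tnfrsf25 0.859 FPKM in RC, both close to it.

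Differences between model and control were tested with the edgeR quasi-likelihood test within each species, and a gene was called when its P, adjusted over all genes tested, was under 0.05. In rat 19 members passed the filter on low counts, and 10 of them were called, where 35.1% of all genes tested were. Of these, 8 had higher expression in the RM group (background 18.3%) and 2 had lower expression (background 16.8%). In mouse 27 members passed the filter and 24 were called, where 75.0% of all genes tested were. Of these, 17 were higher in the MM group (background 37.4%) and 7 were lower (background 37.7%). The median log2 fold change of the tested members was 0.15 in rat and 1.44 in mouse, against 0.0052 and -0.016 over all genes tested. The 14 rat and 15 mouse members below the filter did not exceed 0.468 and 0.472 FPKM in any library.

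A member counted as a DEG when its P before adjustment was under 0.05, its log2 fold change reached 0.85 up or down, and 1 or more libraries had at least 1 FPKM. In rat 6 members were DEGs, where 8.54% of all genes tested were. Tnfrsf1b, Tnfrsf9, Tnfsf15, Tnfsf13 and Edar were higher in the RM group (background 4.64%), and Tnfsf18 was lower (background 3.9%). In mouse 14 members were DEGs (background 25.6%), of which 11 were higher in the MM group (background 12.6%). The 3 that were lower were Edar, Ngfr and Tnfrsf25 (background 13.0%). Tnfrsf1b, Tnfrsf9 and Tnfsf15 were higher in both species by these criteria, where 1.91% of the 10912 genes tested in both were. Edar met them with higher expression in rat and lower in mouse, as 1.22% of the shared genes did. No member met them in the opposite pattern, which 0.33% of the shared genes showed, and none was lower in both, where 1.96% were. By the adjusted P alone, 6 members were higher in both species, where 9.28% of the shared genes were.

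In mouse the choice of scaling moved all fold changes. The fits used TMM scaling, under which the median over all mouse genes was -0.016, whereas scaling by library size alone put it at -0.29. FPKM values follow the library size. Mouse changes of this order, in Tnfrsf1a, Fas, Tnfrsf10b, Tnfrsf21, Ltbr and Tnfrsf11b, are therefore given under both scalings. Other mouse log2 fold changes are given with TMM scaling unless stated, and were lower with library size alone. In rat the medians under the scalings were 0.0052 and 0.021. In bulk RNA, fewer cells of a type and less RNA per cell cannot be told apart.

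**Figure D1:**
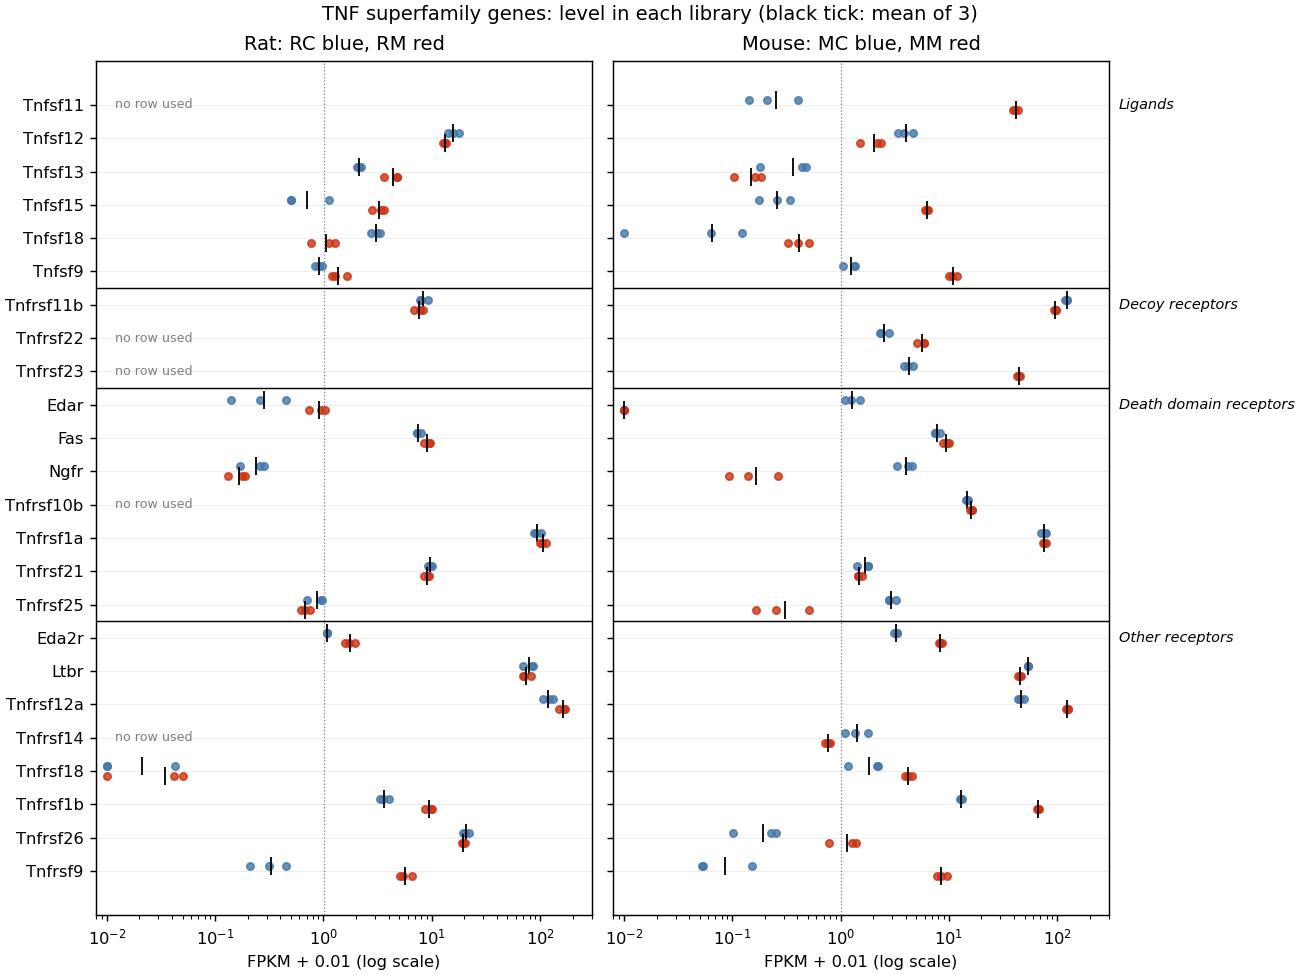
FPKM of the members expressed in either species, with 0.01 added, on a log axis. Each point is a library (blue for control, red for model), each black tick the mean of 3, and the dotted line marks 1 FPKM. Tnfsf11, Tnfrsf9 and Tnfsf15 in mouse were at most 0.392 FPKM in the MC libraries and at least 6.065 FPKM in the MM libraries, while Edar in mouse fell to 0.

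Receptors held the highest levels in every group. In rat chondrocytes the order was led by Tnfrsf12a (119.5 ± 13.0 FPKM in RC and 162.1 ± 11.3 in RM, SD, n = 3), Tnfrsf1a and Ltbr, and neighbours among these 3 did not overlap in their library ranges. The MC group was led by Tnfrsf11b with 122.4 ± 2.92 FPKM, followed by Tnfrsf1a, Ltbr and Tnfrsf12a. In the MM group Tnfrsf12a stood highest with 123.7 ± 2.69 FPKM, followed by Tnfrsf11b, Tnfrsf1a and Tnfrsf1b, again with no overlap between neighbours. Ltbr, Tnfrsf23 and Tnfsf11, the next in the MM group, stood close together at 45.4, 44.5 and 41.3 FPKM. The ranges of Ltbr and Tnfrsf23 overlapped, as did those of Tnfrsf23 and Tnfsf11. The mean levels of all members summed to 369 FPKM in RC and 431 in RM, and to 365 in MC and 572 in MM.

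Of the ligands tested, 2 of 5 were higher and 2 lower in rat (backgrounds 18.3% and 16.8%), and 5 of 6 were higher and 1 lower in mouse (backgrounds 37.4% and 37.7%). Tnfsf11 showed the largest rise of any tested member in mouse. This gene (chr14:78277445-78308043, minus strand, GRCm38) encodes RANKL. It was at 0.392, 0.133 and 0.199 FPKM in the MC libraries and at 41.2, 43.6 and 39.1 FPKM in the MM libraries. The groups held 28 and 5282 reads. All MM libraries lay far above all MC libraries, with a log2 fold change of 7.68 (SE 0.12), or 205-fold, and an adjusted P of 6.92e-56. When libraries were left out in turn, the log2 fold change ran from 7.40 to 8.20, wider than the standard error.

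Tnfsf15 encodes TL1A, the ligand of death receptor DR3 (Tnfrsf25). In mouse (chr4:63727084-63745113, minus strand) its level was 0.332, 0.248 and 0.166 FPKM in MC and 6.065, 6.23 and 6.44 FPKM in MM. In rat it was 1.11, 0.492 and 0.496 FPKM in RC and 3.397, 3.60 and 2.82 FPKM in RM. Neither species showed an overlap between the groups. The log2 fold change was 4.92 (SE 0.16) in mouse, with an adjusted P of 3.165e-37. In rat it was 2.19 (SE 0.32), or 4.55-fold, with an adjusted P of 0.000415.

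Tnfsf9 encodes the ligand of the co-stimulatory receptor Tnfrsf9 (4-1BB). In mouse it rose from 1.36, 1.335 and 1.04 FPKM in MC to 10.1, 11.97 and 10.7 FPKM in MM, a log2 fold change of 3.41 (SE 0.16, adjusted P = 2.71e-29). In mouse 14.9% of the exon bases of Tnfsf9 overlap a gene on the other strand, and strand use in the counting is not given in the sources used here. In rat the levels were 0.832, 0.958 and 0.908 FPKM in RC and 1.635, 1.18 and 1.28 FPKM in RM. These groups did not overlap, but the log2 fold change of 0.58 (SE 0.25) did not pass the test (adjusted P = 0.0971). In limma on log2(FPKM + 1) it passed (adjusted P = 0.0307).

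Tnfsf18, the ligand of GITR (Tnfrsf18), moved in opposite directions. In rat it fell from 3.32, 3.12 and 2.73 FPKM in RC to 1.12, 1.28 and 0.762 FPKM in RM. The log2 fold change was -1.55 (SE 0.21, adjusted P = 0.000264). In mouse it stayed below 1 FPKM throughout, with 0.113, 0 and 0.0539 FPKM in MC against 0.314, 0.396 and 0.498 FPKM in MM. These values rest on 6 and 47 reads, and the log2 fold change was 3.03 (SE 0.57, adjusted P = 3.28e-06). Without MC1 it was 3.96, and without the other libraries it ran from 2.50 without MC2 to 3.20 without MM1. All MM libraries lay above all MC libraries. The same opposite signs, lower in rat and higher in mouse, were found in 5.18% of the genes tested in both species.

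Tnfsf12 encodes TWEAK, the ligand of Tnfrsf12a, and Tnfsf13 encodes APRIL. Tnfsf12 was the 1 member called lower in both species, where 10.1% of shared genes were. In mouse it fell from 4.70, 3.37 and 3.86 FPKM to 2.17, 2.36 and 1.51 FPKM (log2 fold change -0.69, SE 0.18, adjusted P = 0.000375). In rat it went from 14.05, 15.8 and 17.7 FPKM to 13.2, 13.5 and 12.7 FPKM (log2 fold change -0.29, SE 0.10, adjusted P = 0.0448). The rat call was lost without any of RC2, RC3, RM1, RM2 and RM3, with adjusted P values up to 0.179. It was also lost in DESeq2 (adjusted P = 0.0536), with library size alone (0.0549), in limma on log2(FPKM + 0.1) and log2(FPKM + 1) (0.0600 and 0.0636) and with the replicate block (0.0653). Tnfsf13 rose in rat from 2.03, 2.12 and 2.20 FPKM to 3.65, 4.725 and 4.795 FPKM, with no overlap (log2 fold change 1.04, SE 0.16, adjusted P = 0.000625). In mouse it was not tested, with 30 reads in MC and 13 in MM. Mouse Tnfsf12 and Tnfsf13 share 48.3% and 73.5% of their exon bases with the readthrough gene Tnfsfm13 and, for Tnfsf13, the antisense gene, so their reads could be split or lost in the counting.

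TNF itself was close to the limit of detection. Tnf was counted 1 time over the 3 MC libraries and 3 times over the 3 MM libraries, at or under the floor of 3 reads, so no fold is given. A count of 0 in a library allows up to 3 reads. Fasl and Ltb had no read in any mouse library, and Lta and Tnfsf10 had none in any rat library. Mouse Lta had 4 and 6 reads, Tnfsf14 had 1 and 3, and Tnfsf4 had 1 and 3. Of the ligands, 6 of 11 in rat and 11 of 15 in mouse were not expressed by the threshold of 1 FPKM.

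The values of mouse ligands below 1 FPKM rest on few reads. Tnfsf8, the ligand of CD30 (Tnfrsf8), had 2 reads in MC and 70 in MM, a ratio of 38.6 with an exact 95% interval of 10.3 to 325 that covers counting error only. It passed the filter and was called (log2 fold change 5.02, SE 0.63, adjusted P = 1.75e-10). Without MC3 the log2 fold change was 7.595, and without the other libraries it ran from 4.52 to 5.105. Tnfsf10, which encodes TRAIL, was not tested and had 27 reads in MC and 2 in MM, a ratio of 12.2 in favour of MC (interval 3.08 to 106). Below the filter, groups did not overlap in 4 mouse members. Tnfrsf8 was higher in MM (background 4.79%), and Tnfsf10, Tnfsf13b and Tnfsf13os were lower (background 11.3%).

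**Figure D2:**
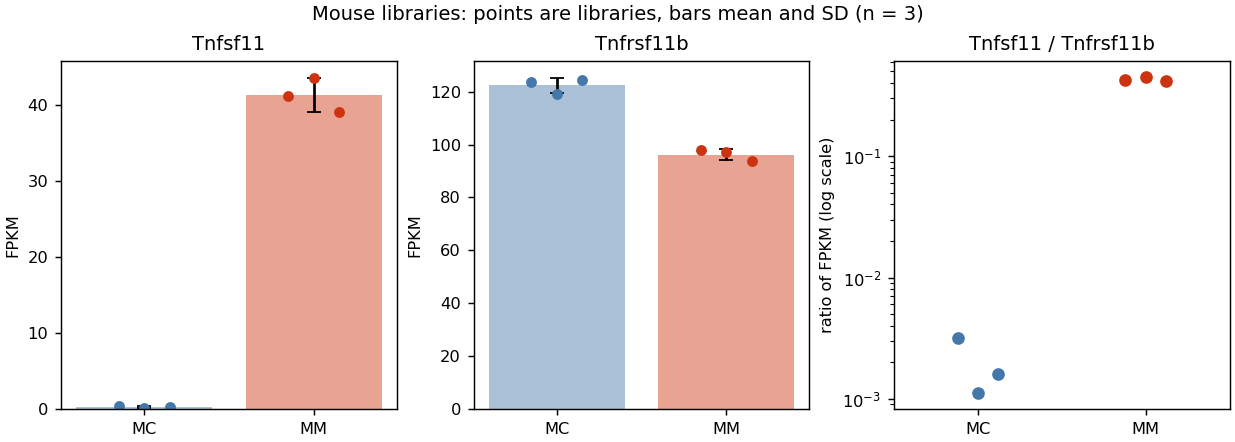
Levels of Tnfsf11 and Tnfrsf11b in FPKM (bars are means, error bars SD, points the 3 libraries) and their ratio in each library on a log axis, for the MC and MM groups. Tnfsf11 rose from 0.241 to 41.3 FPKM on average while Tnfrsf11b stood at 122.4 and 96.2 FPKM, and the ratio lay between 0.00112 and 0.00317 in MC and between 0.417 and 0.449 in MM.

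Tnfrsf11b, osteoprotegerin, is the decoy that binds RANKL. In mouse (chr15:54250619-54278484, minus strand) it was at 123.8, 119.0 and 124.3 FPKM in MC and at 97.9, 97.0 and 93.7 FPKM in MM. The MM libraries were lower than all MC libraries on this scale. With TMM scaling the log2 fold change was -0.07 (SE 0.03, adjusted P = 0.0440), and with library size alone it was -0.35 (adjusted P = 2.53e-16). The first call was lost in DESeq2 (adjusted P = 0.101), with RLE scaling (0.0787), without the filter on low counts (0.129) and without MC1, MC3, MM2 or MM3 (adjusted P up to 0.287). In rat Tnfrsf11b was at 9.18, 7.75 and 7.87 FPKM in RC and at 8.22, 7.77 and 6.87 FPKM in RM, with overlapping groups (log2 fold change -0.14, SE 0.10, adjusted P = 0.334).

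In mouse the ratio of Tnfsf11 to Tnfrsf11b in FPKM does not depend on how libraries are scaled. It was 0.00317, 0.00112 and 0.00160 in MC and 0.421, 0.449 and 0.417 in MM. The means were 0.00196 ± 0.00107 and 0.429 ± 0.0175 (SD, n = 3). The groups were fully apart, with a two-sided exact permutation P of 0.1, which is the smallest that 3 against 3 libraries allow. Tnfrsf11a, the signalling receptor RANK, was not expressed in either species, with 19 and 21 reads over the mouse groups and 6 and 1 over the rat groups.

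Tnfrsf22 and Tnfrsf23 encode decoy receptors of the mouse for TRAIL and lie beside Tnfrsf26 on chromosome 7. Tnfrsf23 (chr7:143665809-143685872, minus strand) was at 4.23, 3.87 and 4.64 FPKM in MC and at 42.7, 44.9 and 45.9 FPKM in MM. This was a 12.7-fold rise (log2 fold change 3.67, SE 0.05, adjusted P = 3.35e-57) with the groups far apart. Tnfrsf22 (chr7:143634806-143649661, minus strand) rose 2.72-fold, from 2.33, 2.82 and 2.34 FPKM to 5.10, 5.83 and 5.83 FPKM (adjusted P = 5.58e-22). Tnfrsf26 (chr7:143607659-143628722, minus strand) rose from 31 to 206 reads, that is from 0.184 ± 0.0805 to 1.13 ± 0.315 FPKM (log2 fold change 2.87, SE 0.29, adjusted P = 1.965e-13). The gaps between these neighbours are 6083 and 16147 bases. The genes are close relatives, and reads common to them could be divided or dropped in the counting.

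Tnfrsf26 in rat was among the higher members, at 21.9, 20.3 and 19.4 FPKM in RC and 19.05, 20.5 and 19.3 FPKM in RM. The groups overlapped and the change was not called (log2 fold change -0.08, SE 0.08, adjusted P = 0.455). Rat and mouse genes were matched by symbol alone. Whether the rat gene of this name is the counterpart of the mouse gene was not tested.

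Of the death domain receptors, 2 of 6 tested were higher in rat and none was lower (backgrounds 18.3% and 16.8%), and in mouse 3 of 7 were higher and 3 lower (backgrounds 37.4% and 37.7%). Tnfrsf1a, the main signalling receptor for TNF, was at 77.5, 71.45 and 78.8 FPKM in MC and 75.95, 73.7 and 79.1 FPKM in MM, with overlapping groups. With TMM scaling its log2 fold change in mouse was 0.28 (SE 0.04, adjusted P = 1.79e-10), and with library size alone it was 0.0051 (adjusted P = 0.898). In rat it was at 88.9, 101.6 and 92.5 FPKM in RC and 99.9, 104.7 and 113.3 FPKM in RM, and its log2 fold change of 0.15 (SE 0.08) was not called (adjusted P = 0.152).

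Fas, the receptor of Fas ligand, was at 7.395, 7.48 and 8.26 FPKM in MC. It averaged 9.45 ± 0.603 FPKM (SD, n = 3) in MM, with a lowest library of 8.81, and the groups did not overlap. Its log2 fold change was 0.57 (SE 0.09, adjusted P = 1.27e-07) with TMM scaling and 0.29 (adjusted P = 0.00355) with library size alone. In rat it was at 7.32, 7.32 and 7.92 FPKM in RC and 9.535, 8.44 and 9.35 FPKM in RM (log2 fold change 0.26, SE 0.09, adjusted P = 0.0411). The rat call was lost in DESeq2 (adjusted P = 0.0824), in limma on log2(FPKM + 1) (0.0516), without the filter on low counts (0.0608), with the replicate block (0.0702) and when any library was left out (adjusted P up to 0.142).

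Tnfrsf10b, the mouse receptor for TRAIL that carries a death domain, was at 15.1, 14.8 and 14.4 FPKM in MC and 15.5, 16.4 and 16.35 FPKM in MM. All MM libraries were higher, by a log2 fold change of 0.40 (SE 0.04, adjusted P = 5.46e-13) with TMM scaling and 0.13 (adjusted P = 0.00653) with library size alone. Tnfrsf21 (DR6) was not called in either species, with a log2 fold change of 0.10 (SE 0.14, adjusted P = 0.515) in mouse and -0.10 (SE 0.08, adjusted P = 0.337) in rat. The mouse value turned to -0.18 with library size alone. Levels of Tnfrsf21 were 1.40 to 1.80 FPKM in MC and 1.43 to 1.56 FPKM in MM. In rat they were 9.17 to 9.97 FPKM in RC and 8.51 to 9.34 FPKM in RM, and levels were not tested between the species.

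Edar, the receptor of ectodysplasin, lost all its reads in mouse. It was at 1.49, 1.24 and 1.09 FPKM in MC, or 240 reads, and no read was counted in any MM library. Set against the floor of 3 reads over the group, expression in MM was at least 72.5-fold lower (adjusted P = 2.51e-20). The rat gene moved the other way, from 0.440, 0.248 and 0.130 FPKM in RC to 0.720, 1.03 and 0.950 FPKM in RM. These were 71 and 233 reads, with no overlap and a log2 fold change of 1.68 (SE 0.36, adjusted P = 0.00446). RM2 was the 1 rat library above 1 FPKM, so rat Edar no longer counted as a DEG without it. Higher in rat with lower in mouse was found in 7.29% of the genes tested in both species.

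Ngfr, the low-affinity neurotrophin receptor p75, fell in mouse from 4.20, 4.60 and 3.30 FPKM to 0.130, 0.252 and 0.0830 FPKM. The groups held 719 and 31 reads, and the fall was 20.9-fold (log2 fold change -4.38, SE 0.22, adjusted P = 1.30e-27). Tnfrsf25, the receptor of TL1A, fell in mouse from 2.77, 2.76 and 3.28 FPKM to 0.241, 0.157 and 0.502 FPKM (log2 fold change -3.04, SE 0.25, adjusted P = 2.12e-17). Its ligand gene Tnfsf15 rose in the same libraries. In rat both receptors were below 1 FPKM in all libraries, with overlapping groups and adjusted P values of 0.248 for Ngfr and 0.318 for Tnfrsf25.

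Of the other receptors, 4 of 7 tested were higher in rat and none was lower (backgrounds 18.3% and 16.8%), and in mouse 7 of 11 were higher and 2 lower (backgrounds 37.4% and 37.7%). Tnfrsf1b, the second TNF receptor, which has no death domain, rose in both species. In mouse (chr4:145213463-145246870, minus strand) it went from 12.8, 13.1 and 12.6 FPKM to 65.75, 66.5 and 67.85 FPKM. In rat it went from 3.32, 4.06 and 3.535 FPKM to 10.1, 8.60 and 9.75 FPKM. The groups were apart in both, with a 6.30-fold rise in mouse (log2 fold change 2.66, SE 0.04, adjusted P = 3.78e-56). The rise in rat was 2.58-fold (log2 fold change 1.37, SE 0.11, adjusted P = 6.835e-06). Its rat promoter held the AP-1 match.

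Tnfrsf9 (4-1BB) is known as an activation-induced receptor of T cells. It was close to 0 in control chondrocytes of both species, at 0.0429, 0.0436 and 0.143 FPKM in MC and at 0.305, 0.201 and 0.443 FPKM in RC. The MM libraries were at 9.51, 8.395 and 7.71 FPKM, and the RM libraries at 5.42, 6.50 and 5.12 FPKM. No group overlapped its control. The rise was 129-fold in mouse, from 11 to 1333 reads (log2 fold change 7.01, SE 0.21, adjusted P = 1.44e-39), and came to 7.81 on the log2 scale without MC3 and to between 6.73 and 7.085 without the other libraries. In rat it was 17.8-fold, from 37 to 685 reads (log2 fold change 4.15, SE 0.25, adjusted P = 7.99e-07), the largest among the rat members tested.

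Tnfrsf12a (Fn14), the receptor of TWEAK, rose in both species. In mouse it went from 49.0, 45.7 and 43.4 FPKM to 125.8, 120.7 and 124.7 FPKM, a 3.26-fold rise (log2 fold change 1.71, SE 0.04, adjusted P = 6.97e-46). In rat it went from 105.8, 121.0 and 131.7 FPKM to 166.0, 149.4 and 171.0 FPKM (log2 fold change 0.42, SE 0.09, adjusted P = 0.00500), below the fold of the DEG criteria. Its ligand gene Tnfsf12 was called lower in the same comparisons, with the limits given above for its rat call and its mouse reads. Eda2r (XEDAR), which binds an isoform of ectodysplasin, rose in mouse from 3.34, 3.34 and 3.09 FPKM to 8.64, 8.16 and 8.29 FPKM (log2 fold change 1.64, SE 0.06, adjusted P = 1.56e-32). In rat it went from 1.06, 1.07 and 1.07 FPKM to 1.70, 1.57 and 1.96 FPKM (log2 fold change 0.69, SE 0.19, adjusted P = 0.0186). That call was lost without RC3 (adjusted P = 0.0528) and without RM3 (adjusted P = 0.0739).

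Ltbr, the lymphotoxin β receptor, was abundant in all groups. In mouse it was at 53.95, 53.3 and 54.1 FPKM in MC and 46.8, 43.96 and 45.5 FPKM in MM. Its log2 fold change was 0.03 (SE 0.04, adjusted P = 0.429) with TMM scaling and -0.24 (adjusted P = 6.37e-08) with library size alone, so its direction depended on the scaling. In rat it was at 69.99, 85.7 and 83.5 FPKM in RC and 69.5, 71.3 and 82.4 FPKM in RM (log2 fold change -0.12, SE 0.10, adjusted P = 0.379). Without RC1 the rat value was -0.22 and was called (adjusted P = 0.0289).

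Tnfrsf18 (GITR) rose in mouse from 1.15, 2.18 and 2.19 FPKM to 4.16, 4.60 and 3.94 FPKM (log2 fold change 1.48, SE 0.18, adjusted P = 4.08e-11). An antisense gene covers 27.2% of its exon bases. The rat gene had 1 and 2 reads over the groups. Tnfrsf14 (HVEM) in mouse went from 1.79, 1.36 and 1.08 FPKM to 0.763, 0.711 and 0.796 FPKM (log2 fold change -0.62, SE 0.29, adjusted P = 0.0492). This call was lost in DESeq2 (adjusted P = 0.116), with RLE scaling (0.0522), without the filter on low counts (0.0693), with the replicate block (0.0653) and without any of MC1, MC2, MM1, MM2 and MM3 (adjusted P up to 0.259). It was kept with library size alone (log2 fold change -0.89, adjusted P = 0.00402) and in limma on log2(FPKM + 1) (adjusted P = 0.00271).

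Further receptors known from immune cells, and Tnfrsf19, stayed below 1 FPKM. Cd40 had 5 reads in MC and 76 in MM, and was called (log2 fold change 3.96, SE 0.51, adjusted P = 4.44e-10). In rat it had 3 and 35 reads and was not tested, a ratio of 11.4 with an exact interval of 3.60 to 58.0. Its RM libraries lay above all RC libraries (background 3.84%). Tnfrsf8 (CD30) had no read in MC and 24 in MM, at least 8.83-fold higher. In rat it had 10 reads in RC and 1 in RM, a ratio of 10.2 with an interval of 1.46 to 444 (background of lower and not overlapping genes in rat, 4.37%). Of the RC reads, 7 were in RC3. The gap between the rat groups rests on 1 read in RC2 (0.0127 FPKM) against 1 in RM3 (0.0123 FPKM), so no direction is read from it. Tnfrsf19 (TROY) fell in mouse from 108 to 18 reads (log2 fold change -2.42, SE 0.38, adjusted P = 6.17e-08). Tnfrsf4 (OX40) in mouse had 54 and 30 reads and was not called (log2 fold change -0.70, SE 0.39, adjusted P = 0.0978). It passed with library size alone (log2 fold change -0.975, adjusted P = 0.0187) and in limma on log2(FPKM + 1) (adjusted P = 0.0109). The B cell receptors Tnfrsf13b, Tnfrsf13c and Tnfrsf17 had at most 7 reads in any group of either species.

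**Figure D3:**
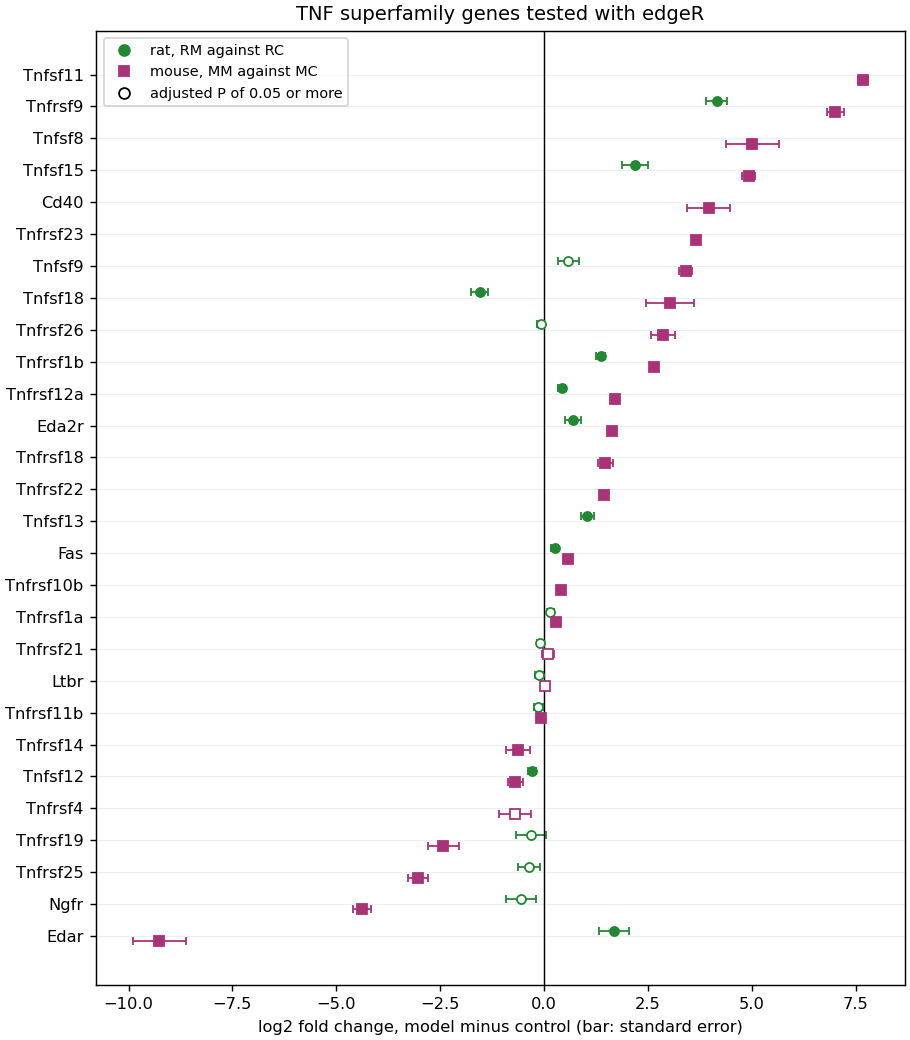
Log2 fold change of model minus control for each member tested, with its standard error, for rat (green circles) and mouse (purple squares). Open symbols had an adjusted P of 0.05 or more. In mouse 17 filled symbols lie above 0 and 7 below it, and the value for mouse Edar is set by a group without reads and is no measure of the size of its fall.

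Whether the species differed in their change was asked in a joint fit of all 12 libraries, in which the log2 fold change in rat was taken from that in mouse. It could be tested for 18 members, and 13 of them differed, where 63.8% of 10912 shared genes did. The difference, mouse minus rat, was above 0 in 9 members, Eda2r, Fas, Tnfrsf12a, Tnfrsf1b, Tnfrsf26, Tnfrsf9, Tnfsf15, Tnfsf18 and Tnfsf9 (background 31.4%). It was below 0 in 4 members, Edar, Ngfr, Tnfrsf19 and Tnfrsf25 (background 32.3%). Of these, Ngfr, Tnfrsf19 and Tnfrsf25 fell in mouse and were not called in rat, and Edar fell in mouse and rose in rat. For Tnfrsf1b, called in the same direction in both species, the difference was 1.29 on the log2 scale (SE 0.11, adjusted P = 1.26e-08), and for Tnfrsf12a it was 1.28 (SE 0.10, adjusted P = 1.27e-08). The difference for Fas, 0.31 (SE 0.12, adjusted P = 0.0365), came to 0.015 (adjusted P = 0.918) with library size alone. Ltbr, Tnfrsf11b, Tnfrsf1a, Tnfrsf21 and Tnfsf12 did not pass, which does not show that they changed alike. Their differences were 0.15 (SE 0.11), 0.07 (SE 0.10), 0.13 (SE 0.09), 0.20 (SE 0.14) and -0.40 (SE 0.21). The sign of the first 4 turned with library size alone, and the Tnfsf12 difference was then -0.70 and passed (adjusted P = 0.00719), as it did in limma on log2(FPKM + 1) (-0.47, adjusted P = 0.0197). Without RC1 the differences of Ltbr (0.25, adjusted P = 0.00726) and Tnfrsf1a (0.19, adjusted P = 0.0369) passed.

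By position, 9 of the 42 mouse members lie on chromosome 4, more than on any other chromosome. Of these 8 were tested, 5 rose, 2 fell and 1 was not called, against backgrounds of 37.4% higher and 37.7% lower. Of the neighbours there, Tnfrsf1b (chr4:145213463-145246870) and Tnfrsf8 (chr4:145267137-145315164), 20266 bases apart, had a called rise and a count of 0 reads in MC against 24 in MM, which was not tested. Tnfrsf4 (chr4:156013843-156016612) and Tnfrsf18 (chr4:156026164-156028895), 9551 bases apart, had log2 fold changes of -0.70 and 1.48, of which the second was called. Ltb, Tnf and Lta, neighbours on chromosome 17, had 0 to 6 reads in each group.

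The genes acting directly below the receptors were taken as a list of 36, made of adaptors, TRAF proteins, ubiquitin ligases, caspase regulators and the NF-κB module. All were tested in both species. In rat 17 were higher in the RM group and 1, Rbck1, was lower, against backgrounds of 18.3% and 16.8%. In mouse 26 were higher in the MM group and 7 were lower, against 37.4% and 37.7%. With library size alone these mouse counts were 20 and 11. The median log2 fold change of the list was 0.28 in rat and 0.71 in mouse. By the DEG criteria 9 were higher in rat (background 4.64%) and 14 in mouse (background 12.6%). None was lower in either, against backgrounds of 3.9% and 13.0%.

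Feedback inhibitors of NF-κB led the list. Nfkbia, which encodes the inhibitor IκBα, rose from 10.55 ± 0.684 to 45.4 ± 3.18 FPKM in rat (log2 fold change 2.09, SE 0.09) and from 14.3 ± 0.706 to 104.8 ± 5.53 FPKM in mouse (log2 fold change 3.15, SE 0.05). Tnfaip3, the ubiquitin-editing enzyme A20, rose from 1.17 ± 0.286 to 3.94 ± 0.772 FPKM in rat (log2 fold change 1.73, SE 0.21) and from 0.344 ± 0.0171 to 7.18 ± 0.133 FPKM in mouse (log2 fold change 4.66, SE 0.10). Birc3, a ubiquitin ligase that binds TRAF proteins, was the third in rat, with a log2 fold change of 1.58 (SE 0.14, adjusted P = 1.86e-05). Traf1, a TRAF protein without the ligase domain of its relatives, was the third in mouse, with a log2 fold change of 2.31 (SE 0.17, adjusted P = 4.31e-19). All 4 adjusted P values of Nfkbia and Tnfaip3 passed, the highest being 0.000137 for Tnfaip3 in rat.

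The largest falls in the mouse list were in Traf5, with a log2 fold change of -0.75 (SE 0.18), in Rnf31, the catalytic subunit of the linear ubiquitin ligase LUBAC, with -0.58 (SE 0.07), and in Tab1, a partner of the kinase TAK1, with -0.51 (SE 0.08). In rat Rbck1, another LUBAC subunit, fell by 0.30 on the log2 scale (SE 0.08, adjusted P = 0.0166). That call was lost without RC3, RM1 or RM2, which left 0 genes of the list called lower.

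**Figure D4:**
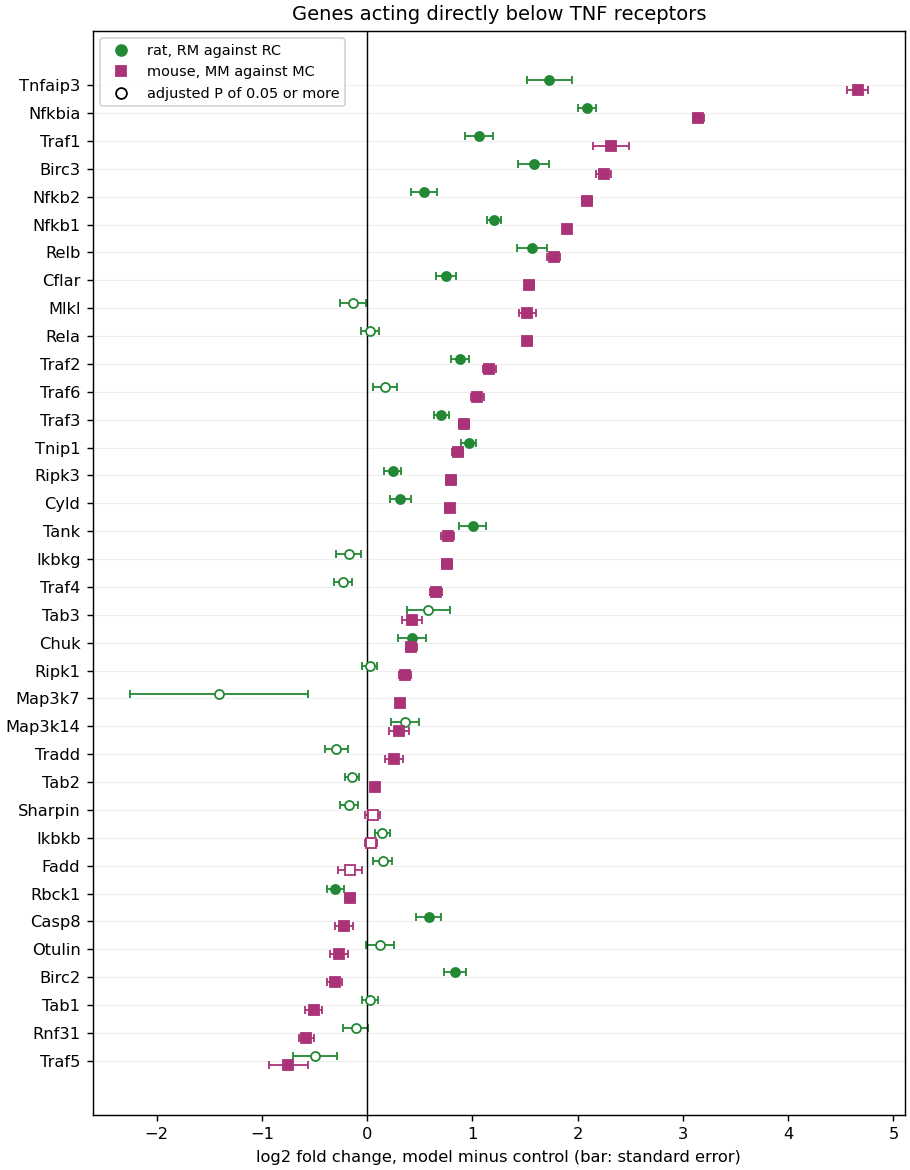
Log2 fold change of model minus control for the 36 genes acting directly below TNF receptors, with standard errors, for rat (green circles) and mouse (purple squares). Open symbols had an adjusted P of 0.05 or more. Tnfaip3 and Nfkbia stand furthest to the right in mouse. Among the mouse symbols Traf5, Rnf31 and Tab1 stand furthest to the left, and the open rat symbol of Map3k7 lies further left still, at -1.41 (SE 0.85). Rat Map3k7 had 334 reads in RC1 but 27 in RC2 and 20 in RC3. Its value ran from -1.91 to 0.884 when libraries were left out in turn, so no direction is read from it.

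Shedding of membrane-bound ligands and receptors was followed by a list of 5 genes. In rat 3 were higher and 1 was lower (backgrounds 18.3% and 16.8%). These were Rhbdf2, a partner of the sheddase ADAM17 (log2 fold change 1.00, SE 0.10), Adam17 itself (0.69, SE 0.08), Adam10 (0.53, SE 0.13) and, lower, the ADAM17 inhibitor Timp3 (-1.25, SE 0.07). In mouse 2 of the 5 were higher, Rhbdf2 (2.47, SE 0.07) and Adam17 (0.47, SE 0.04), against a background of 37.4%. Timp3 (-2.40, SE 0.03) was the 1 called lower, against 37.7%. With library size alone mouse Adam17 came to 0.19. Adam10 and Rhbdf1, which were not called in mouse, then passed as lower (-0.21 and -0.23, adjusted P = 1.005e-06 and 7.70e-06). The rat Adam10 call was lost without RC3 (adjusted P = 0.0540). Timp3 went from 139.2 ± 9.63 to 59.0 ± 1.11 FPKM in rat and from 377 ± 20.4 to 59.0 ± 2.07 FPKM in mouse.

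Markers of cell types were read beside these changes. Of all genes tested, 18.3% were called higher and 16.8% lower in rat, and 37.4% and 37.7% in mouse. All 10 chondrocyte markers, among them Col2a1, Acan and Sox9, fell in both species. Their summed level went from 5081–5716 to 2009–2053 FPKM in rat and from 2404–2448 to 210–224 FPKM in mouse. Their part in the changes of the superfamily was not tested. Of 12 macrophage and leukocyte markers, 2 of 6 tested were higher in rat and 2 lower, and 3 of 3 tested were higher in mouse. The sums were 20.4–24.8 and 31.6–35.7 FPKM in RC and RM, and 6.07–7.30 and 32.5–34.1 FPKM in MC and MM. In mouse the rise lay in Cd14 (1.87 ± 0.434 to 24.1 ± 0.730 FPKM), Cd68 (3.52 ± 0.525 to 8.24 ± 0.763 FPKM) and Csf1r, whose call was lost without MC2 (adjusted P = 0.116) and with library size alone (0.106). In rat Cd14 (12.4 ± 1.27 FPKM in RC) and Cd68 (3.96 ± 0.365 FPKM in RC) rose to means of 22.7 and 7.63 FPKM, while Laptm5 fell from 3.26 ± 0.360 to 1.075 ± 0.335 FPKM and Csf1r from 0.669 ± 0.0473 to 0.295 ± 0.0579 FPKM. Fcer1g (1.10 and 1.38 FPKM) and Tyrobp (0.795 and 0.628 FPKM) were detected in rat and not called. The markers Ptprc and Adgre1 were at or under 0.101 FPKM on average in all 4 groups, and Itgam was at 0 in all mouse libraries.

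Osteoclast markers, of interest for Tnfsf11, summed to 32.0–33.9 and 23.8–28.0 FPKM in RC and RM and to 139–145 and 168 FPKM in MC and MM, where Ctsk made up most of the level. In rat 2 were higher and 2 lower, and in mouse 3 were higher and none lower of 4 tested each. The backgrounds for these and the following counts were 18.3% higher and 16.8% lower in rat, and 37.4% and 37.7% in mouse. Mmp9 rose from 0.196 ± 0.0480 to 7.335 ± 1.485 FPKM in rat and from 0.0553 ± 0.0428 to 0.665 ± 0.0767 FPKM in mouse. Itgb3 rose from 0.327 to 0.808 FPKM in rat and from 1.90 to 11.55 FPKM in mouse. Acp5 went from 6.93 to 4.36 FPKM in rat, where it was called, and from 2.94 to 1.92 FPKM in mouse, where it was not. With library size alone mouse Acp5 passed as lower (log2 fold change -0.61, adjusted P = 0.000488). Calcr was at or under 0.0131 FPKM on average in each group. Osteoblast markers fell, 3 of 4 tested in rat and 7 of 7 in mouse. They summed to 11.8–12.4 and 4.48–5.63 FPKM in RC and RM and to 20.8–21.6 and 4.43–4.75 FPKM in MC and MM. Sost was at 0 in rat. Endothelial markers summed to no more than 0.185 FPKM in rat, where 0 of 6 passed the filter, and 0.793 in mouse, where 1 was higher and 1 lower of 2 tested. Fibroblast and synovial markers were higher for 3 and lower for 2 of 8 tested in rat, and higher for 5 and lower for 2 of 7 tested in mouse. They summed to 1878–2058 FPKM in RC and 1941–1995 in RM, with overlapping ranges, and to 486–500 FPKM in MC and 1462–1471 in MM. The sums hide opposite changes of single genes. In rat Prg4 rose from 8.49 to 475.8 FPKM, while Col3a1 fell from 916.7 to 469.3 FPKM. In mouse Dcn rose from 22.9 to 601.5 FPKM and Pdpn from 75.6 to 413.0 FPKM, while Thy1 fell from 12.5 to 3.48 FPKM. Muscle markers were below 5.13 FPKM in sum, with 2 of 2 tested lower in mouse and neither of the 2 tested called in rat. The part of these cell types in the changes was not tested.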

How the data were processed

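RNA-seq counts and FPKM values were taken from 1 table per species. The counts are the whole-number reads per Ensembl gene and library deposited by the authors, without normalization. The FPKM values were made by the authors from these counts, by gene length and library total. The submitters' processing notes name HISAT2, HTSeq 0.11.2, GRCm38 and Rnor_6.0 without a role, and the strand setting is not given in the sources used here. Libraries were grouped by their titles.

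Counts were filtered with filterByExpr, scaled by TMM and fitted within each species with the quasi-likelihood test of edgeR 4.0.16 in R 4.3.3. P values were Benjamini-Hochberg adjusted across the genes tested. Genes with the same symbol in both species entered a joint fit for the difference between the species. Alternatives were library size alone, RLE factors, DESeq2 1.42.0, limma 3.58.1 on log2(FPKM + 1) and log2(FPKM + 0.1), no filter, the replicate number as a block, each library left out, and other thresholds. On simulated counts with known changes, edgeR recovered 89.03% of 155 changed rat genes tested with 9.211% of calls false, 99.14% of 116 in mouse with 1.709% false, and 95.5% of 200 species differences with 5.911% false. The simulation changed few genes, all by the same fold up or down. In the mouse data 75.0% of genes tested were called, so it does not gauge small folds or the effect of scaling there. Folds against a group without reads are bounds from 3 reads over the group, and exact 95% intervals of read ratios cover counting error only.

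The fold criterion for DEGs, from the study's methods, was read as a log2 value. The members and gene lists were chosen with earlier results of these data known. Members with a mean of at least 1 FPKM in a group were named, with their counterparts, besides Tnf, Tnfsf11, Tnfrsf11b and Tnfrsf1b and counts of 5 or fewer. From the signalling and shedding lists, the 3 largest called rises and falls per species with a mean of at least 1 FPKM were named. Further low members named with read counts were chosen after their values were seen.

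Mouse positions are those of GENCODE M21 on GRCm38. Gene lengths implied by the FPKM matched its merged exons within 1 base for 12042 of 12509 genes (96.3%). No rat coordinates of the authors' build are given. Libraries of a group differed by more than sampling noise in all pairs, with a chi-square per degree of freedom of 6.07 to 27.8 in rat and 1.90 to 2.485 in mouse. None was counted as a copy of another, but library preparation also adds noise, so this cannot tell repeats of 1 sample from independent samples. The common coefficient of variation between libraries in edgeR was 0.106 in rat and 0.0318 in mouse. The numbers of calls and the P values of the species therefore rest on unlike spreads.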

Additional observations from a re-analysis of the deposited data

Results flagged for a closer look

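The change in mouse differed from the change in rat in 13 members by the edgeR test of the difference, given here as the log2 fold change in mouse minus that in rat from the joint fit. The shares of all shared genes that differed were 31.4% with a difference above 0 and 32.3% with a difference below 0. For Tnfsf18 the difference was 4.59 (SE 0.59, adjusted P = 3.40e-06), where the rat gene fell and the mouse gene rose. It was 5.52 without MC1 and 4.05 to 4.755 without the other libraries. For Tnfrsf26 the difference was 2.95 (SE 0.30, adjusted P = 1.90e-07), with a level near 20.5 FPKM in RC and 0.184 FPKM in MC. These levels were not tested against each other, and the genes were matched by symbol alone. Tnfrsf9 (2.86, SE 0.51) and Tnfsf15 (2.75, SE 0.39) had control means below 1 FPKM in both species. Tnfsf9 (2.84, SE 0.27) averaged 1.24 FPKM in MC and 0.899 FPKM in RC. The Tnfrsf9 difference was 3.67 without MC3 and 2.57 to 3.10 without the other libraries.

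For Tnfrsf1b the difference was 1.29 (SE 0.11), for Tnfrsf12a 1.28 (SE 0.10) and for Eda2r 0.95 (SE 0.16), all genes that rose in both species. For Fas it was 0.31 (SE 0.12, adjusted P = 0.0365). This call was lost without MC1, MC2, MM2, MM3, RC3 or RM2, with adjusted P values up to 0.0930, and the value came to 0.015 with library size alone.

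The difference was below 0 for Edar (-11.12, SE 0.89), which rose in rat and whose fitted value in mouse is set by a group without reads. It was also below 0 for Ngfr (-3.83, SE 0.51), Tnfrsf25 (-2.68, SE 0.40) and Tnfrsf19 (-2.10, SE 0.57), which fell in mouse and were not called in rat.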

How the results depend on the processing

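The counts of members expressed, of members called, of members past the DEG criteria and of species differences stayed within 1.5 times under all alternatives run, as did the counts of called signalling genes, with the following exceptions by direction. Rat members called lower, 2, came to 1 in DESeq2, with library size alone, in both limma fits and with the replicate block, and to 1 to 3 without single libraries. Rat DEGs called higher, 5, came to 3 in limma on log2(FPKM + 1). Rat signalling genes called lower, 1, came to 2 in limma on log2(FPKM + 0.1) and to 0 to 4 without single libraries. Mouse DEGs called lower, 3, came to 5 with library size alone, and mouse signalling genes called lower, 7, came to 11 with library size alone and in both limma fits. The mouse shifts follow the scaling, whose median over all genes lay at -0.29 against -0.016. The causes of the rat shifts were not tested.

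Directions turned for Tnfrsf21 in mouse (-0.18 with library size alone, -0.15 and -0.10 in limma on log2(FPKM + 0.1) and log2(FPKM + 1), and from -0.0056 without MC2 to 0.16 without MC3) and for Ltbr in mouse (-0.24 in each of these 3 settings). In rat Tnfrsf19, which was not called (log2 fold change -0.31, SE 0.37), the value ran from -0.53 to 0.14 when libraries were left out in turn. The differences between species turned with library size alone and in limma for Tnfrsf21 (-0.091 and -0.025), Ltbr (-0.15 and -0.14), Tnfrsf1a (-0.16 and -0.16) and Tnfrsf11b (-0.23 and -0.24, and from -0.0043 without RM3 to 0.12 without RM1).

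Replicate numbers are shared by the groups, but nothing says that they mark pairs. For each gene the group mean was taken from its scaled log2 counts, which leaves the deviation of each library from its group. These deviations correlated between same-numbered libraries at 0.024, -0.098 and 0.085 in rat and at 0.0012, 0.015 and 0.0048 in mouse. Not every library's deviations correlated best with those of its own number. With the replicate block 8 rat and 23 mouse members were called, and 13 differed between species. For the members below 1 FPKM the number of reads limits the precision.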

Other observations

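Some genes of the superfamily and its adaptors go by other symbols and were outside the rule. Of 8 such symbols, 5 were found in the rat table and 4 in the mouse table, and 3 were tested in each. Relt, a receptor of the family, rose from 1.08 ± 0.0731 to 1.76 ± 0.0328 FPKM in rat (log2 fold change 0.70, SE 0.16, adjusted P = 0.00739) and from 0.887 ± 0.0212 to 2.41 ± 0.170 FPKM in mouse (log2 fold change 1.72, SE 0.16, adjusted P = 2.37e-15). Cd27 in mouse fell by 1.39 on the log2 scale (SE 0.48, adjusted P = 0.00754) at levels below 1 FPKM. Eda, which encodes the ligand of Edar and Eda2r, was at 2.37 ± 0.0977 and 1.83 ± 0.122 FPKM in MC and MM and was not called in mouse (log2 fold change -0.09, SE 0.09, adjusted P = 0.379) or in rat (0.51, SE 0.33, adjusted P = 0.256). With library size alone the mouse value was -0.37 and passed (adjusted P = 0.0003465). Edaradd, the adaptor of Edar, was tested in rat alone and was not called (adjusted P = 0.599). Rat Faslg, the gene named Fasl in the mouse, was not tested, at 0.361 ± 0.128 FPKM in RC and 0.125 ± 0.0254 FPKM in RM.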
